A study of Drosophila melanogaster with 16 samples.

Results

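The 200 brightest transcripts of the control fly brain were followed into brains of a prickle-spiny legs mutant. They were chosen by their own measured values: log2 intensity was averaged over the 4 technical arrays of each of 2 control replicates, then over both replicates, and the 200 transcripts with the highest mean were taken out of 21051 on the array (0.950%). Of the 21051, 16637 were measured above the lowest value of the table, and all 200 members were among these. The values that chose the members are given as a description only. Because control values entered the choice, a difference between genotypes over the members is described as well and is not used as a test.

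The mutant brains came from adult Drosophila melanogaster that carry a spontaneous mutation of prickle, named prickle-spiny legs (pk sple1) and labelled bang sensitive. The control brains came from adults of the wild-type strain Oregon-R (OR), labelled with brown bodies and red eyes. Each genotype had 2 biological replicates of 4 technical arrays each, 16 arrays in all, hybridised with Cy3-labelled cDNA from total RNA. Age, sex, the number of brains in a sample and any backcross of the mutant to Oregon-R are not given in the labels, so the allele and the strain background cannot be told apart.

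Prickle is a core protein of planar cell polarity, the system that aligns cells within the plane of a tissue, and its spiny-legs isoform shares that role. In neurons, prickle isoforms affect the polarity of microtubules and axonal transport, and flies called bang sensitive respond to a sudden knock with seizure-like behaviour and paralysis. The most abundant messenger RNAs of a tissue usually encode ribosomal proteins, translation factors, cytoskeletal proteins and enzymes of energy metabolism, and in brain also proteins of synapses. Whether the 200 members belong to these groups was not tested, since the deposited table names transcripts by FlyBase ID alone.

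A reference table of Drosophila genes listed 49 of the 21051 IDs among its synonyms, and 1 of these was a member. FBtr0082962 was listed under His4r, a gene for histone H4 that lies outside the replication-dependent histone gene cluster, on chromosome 3R from 14625755 to 14626614 of the Release 6 plus ISO1 MT assembly. The other 199 members are given by ID or as counts and ranges. Markers of neurons, glia, photoreceptors, fat body and muscle had no named transcript on the list, so the labelled tissue could not be checked from the members. The word brightest is used in place of abundant: intensity depends on how well each probe binds its target as well as on the amount of RNA, so the order of transcripts by intensity need not be their order by copy number.

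The 200 members filled a narrow range at the top of the scale. Their control means ran from 30608 to 43601, a 1.42-fold span or 0.51 log2 units, and the transcripts at ranks 50 and 100 stood at 35940 and 33709. Ranks 101 to 200 lay within 0.14 log2 units. The highest intensity of any transcript on an array was between 41623 and 45946 on all 16 arrays, and on each of them it was held by a member. The median member was 7.63 times as bright as the median measured transcript in sple brains and 7.42 times in control brains. The members gave 5.77% and 5.69% of the summed intensity of the table in sple replicates 1 and 2, against 5.76% and 5.78% in control replicates 1 and 2. The files do not say whether any probe was near the upper limit of the scanner.

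After the submitters' processing with RMA, the members were about as bright in sple as in control brains, with 1 exception. How far that processing evened out the arrays, and with them these levels and shares, was not tested. Their median intensity was 34186 and 33557 in sple replicates 1 and 2, against 33706 and 34049 in control replicates 1 and 2, so the genotypes overlapped. On single arrays the members' median ran from 32657 to 34829 in sple and from 33283 to 34857 in control. The lowest member stood at 15041 and 12054 in sple replicates 1 and 2, and at 27767 and 27157 in control replicates 1 and 2. The lowest member in both sple replicates was FBtr0076453, described further on. In sple replicate 2, FBtr0070386 at 25301 and FBtr0087041 at 26264 also lay below the lowest member of either control replicate.

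The order at the very top was much alike in both genotypes. FBtr0071690, first by control mean, measured 43213 and 41486 in the sple replicates and 43056 and 44153 in the control replicates, and was second in sple. FBtr0070289 measured 44853 and 42381 in the sple replicates, against 43668 and 43100 in the control replicates, and was first in sple and second in control. FBtr0085772 had 41606 and 41344 in sple and 41552 and 42949 in control. Of the 3, FBtr0071690 had the largest difference between the means of sple and control, -0.042 log2 units.

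Of the 10 brightest control transcripts, 7 were also among the 10 brightest of the sple mean, and the lowest of the 10 was at sple rank 27. That transcript was FBtr0075066, with 39851 and 35938 in the sple replicates and 42603 and 38472 in the control replicates, so both genotypes were lower in replicate 2. FBtr0083857 and FBtr0076398 had sple ranks 3 and 6, against control ranks 8 and 10. FBtr0076398 measured 40921 and 41495 in sple, against 39859 and 40020 in control, which did not overlap but differed by only 0.05 log2 units. The remaining 4 of the 10 (FBtr0088816, FBtr0112413, FBtr0086538 and FBtr0089422) had sple ranks between 5 and 19.

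**Figure D1:**
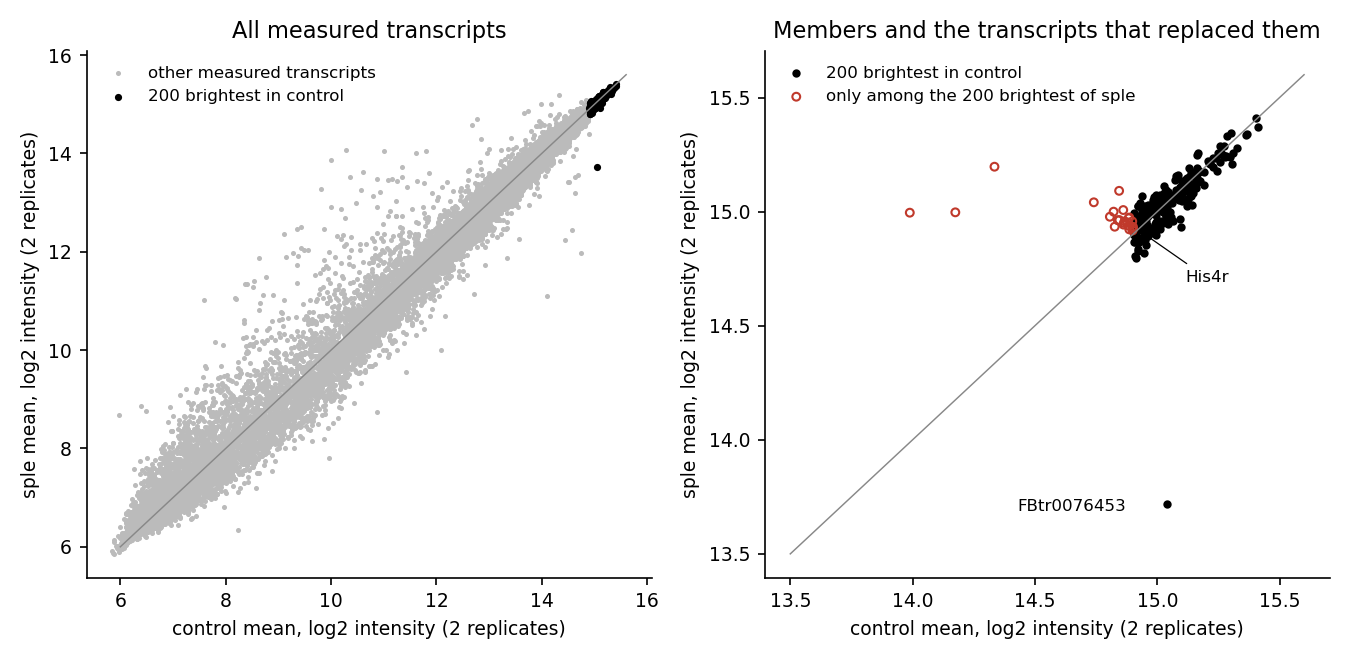
Mean log2 intensity in sple brains (vertical axis) against control brains (horizontal axis), each the mean of 2 biological replicates, for all measured transcripts (left) and for the 200 brightest control transcripts with the 24 that replaced some of them in sple (right). The line marks equal intensity, the members lie close to it except FBtr0076453, and 3 of the 24 red circles lie far to its left.

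Membership in the brightest 200 was shared by most transcripts across genotypes. Of the 200 members, 176 (88.0% of each list) were also among the 200 brightest of the sple mean. A total of 126 members were among the 200 brightest in each of the 4 replicates, 33 in 3 of them, 29 in 2 and 12 in 1. Over single arrays, 77 members were among the 200 brightest on all 16 and 140 on at least 12. The number of members among an array's own 200 brightest ran from 142 to 166 in sple and from 149 to 173 in control, and the ranges overlapped.

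The members that left the list were mostly those near its lower end. All 50 members of ranks 1 to 50 were among the 200 brightest of the sple mean, as were 49 of ranks 51 to 100, 46 of ranks 101 to 150 and 31 of ranks 151 to 200. The median shift in rank between sple and control grew over these blocks, with values of 6, 17, 26 and 36 places. Of the 24 members outside the sple list, 19 had a control rank beyond 150 and 23 had sple ranks between 202 and 339. The last, FBtr0076453, stood at sple rank 3222.

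The edge of the list was finely spaced against the replicate error. The 3 lowest members were FBtr0086886, FBtr0081931 and FBtr0076406, and the 3 transcripts just outside were FBtr0087575, FBtr0070817 and FBtr0077659. FBtr0076406, the last inside, had a control mean of 30608 and FBtr0087575, the first outside, 30604, a gap of 0.00022 log2 units. FBtr0076406 measured 33104 and 28850 in the sple replicates and 32962 and 28423 in the control replicates. FBtr0087575 measured 32869 and 28722 in sple and 32859 and 28504 in control. Both were brighter in replicate 1 of either genotype. Within 1 median control SD (0.05 log2 units) of the 200th mean lay 97 transcripts, 43 of them members and 54 outside.

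Lists drawn from single replicates overlapped no better within a genotype than between genotypes. Sple replicates 1 and 2 shared 149 of their 200 brightest transcripts (74.5% of each list), and control replicates 1 and 2 shared 145 (72.5%). Across genotypes, sple replicate 1 and control replicate 1 shared 163, and sple replicate 2 and control replicate 2 shared 167. Sple replicate 1 and control replicate 2 shared 151, and sple replicate 2 and control replicate 1 shared 144. The pairs with the same replicate number thus had the highest overlaps, and the labels do not say whether a number marks a shared batch. Between single arrays, the median overlap was 165.5 within a replicate (24 pairs), 143.5 between replicates of 1 genotype (32 pairs) and 147.5 between genotypes (64 pairs).

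**Figure D2:**
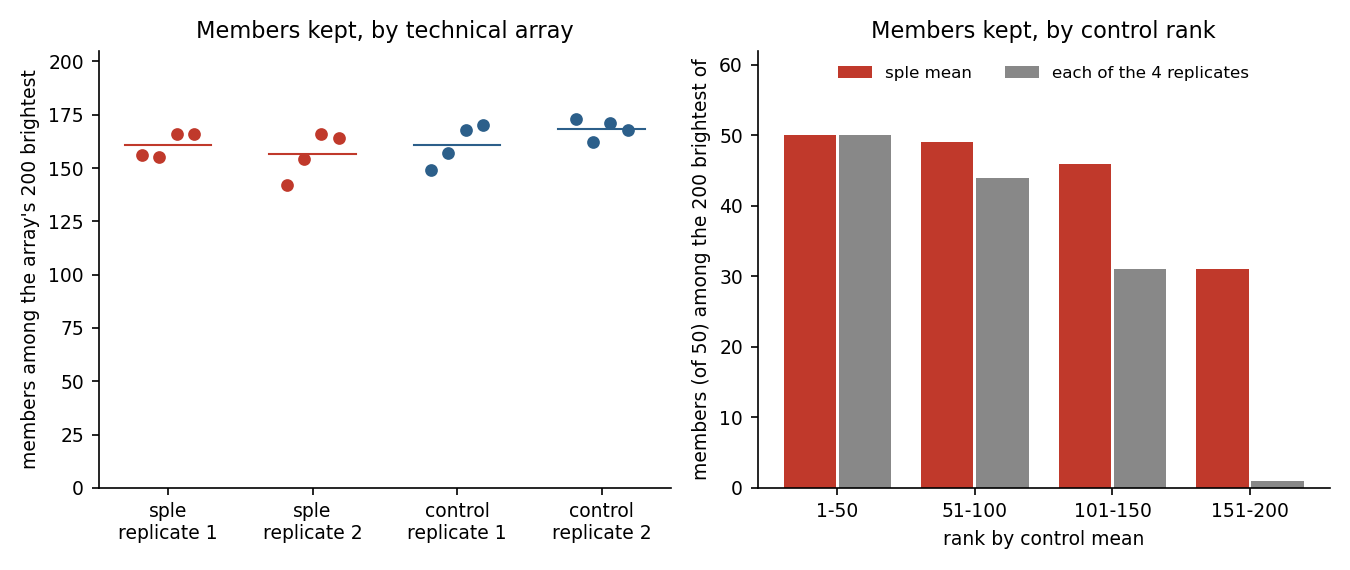
Left, the number of the 200 members found among each array's own 200 brightest transcripts, with 1 point per technical array and a line at the mean of 4, for both sple and both control replicates; the points run from 142 to 173. Right, how many of 50 members in each block of control rank were among the 200 brightest of the sple mean (red) and of each of the 4 replicates (grey); the grey count is 50 for ranks 1 to 50 and 1 for ranks 151 to 200.

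Across the members, which are not independent samples, correlations between replicate means were lower than over the whole table. With FBtr0076453 left out, Pearson's r over the other members was 0.690 between sple replicates 1 and 2 and 0.607 between control replicates 1 and 2. Between genotypes it was 0.83 for sple replicate 1 and control replicate 1, 0.86 for sple replicate 2 and control replicate 2, 0.70 for sple replicate 1 and control replicate 2, and 0.60 for sple replicate 2 and control replicate 1. With all 200 members, r was 0.791 between the sple replicates and 0.597 between the control replicates, and 0.741 and 0.631 between genotypes for the replicates numbered 1 and those numbered 2. Spearman's rho over the 200 was 0.699 between the sple replicates, 0.575 between the control replicates, 0.825 between both replicates numbered 1 and 0.807 between both numbered 2. It was 0.684 for sple replicate 1 and control replicate 2 and 0.572 for sple replicate 2 and control replicate 1. The same-numbered pairs were thus highest by rho and by r without FBtr0076453, but with that transcript the sple pair had the highest r. Over all 16637 measured transcripts r was 0.970 between the sple replicates and 0.987 between the control replicates. Between genotypes it was 0.992 for both replicates numbered 1 and 0.982 for sple replicate 1 and control replicate 2. It was 0.972 for both numbered 2, hardly above the 0.971 for sple replicate 2 and control replicate 1. All measured transcripts cover a far wider range of intensity than the members, and correlation rises with range. The members of 1 list share arrays, labelling and normalization.

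FBtr0076453 was the member with by far the largest difference between genotypes. Its arrays read 15528, 14557, 15385 and 14718 in sple replicate 1 and 13395, 11044, 12558 and 11366 in sple replicate 2. They read 31794, 27872, 31963 and 30222 in control replicate 1 and 37055, 36975, 37830 and 37616 in control replicate 2. All 8 sple arrays lay below all 8 control arrays, and the nearest replicates of the genotypes were 1.02 log2 units apart. The sple mean was 39.9% of the control mean, which limma gave as -1.32 ± 0.21 (SE) log2 units with a 95% interval from -1.90 to -0.75. The transcript held rank 3222 in sple and 99 in control. It ranked 230 in control replicate 1 and 34 in control replicate 2, and was among the 200 brightest in 1 of the 4 replicates.

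Leaving out each biological replicate once gave values from -1.48 to -1.16 for FBtr0076453. Its replicates had an SD of 0.23 log2 units in sple and of 0.21 in control, where 5 members in sple and 7 in control had an SD above 0.2. Its control values helped to choose it, so neither limma's p nor its interval is used as a test here. FBtr0076454, whose ID is next in number and which was examined after these values were seen, measured 2073 and 2298 in the sple replicates, against 12030 and 25427 in the control replicates. The difference was -3.002 log2 units, and the transcript was outside the brightest 200 in both genotypes. FBtr0076452 and FBtr0076455, next in number on either side, had log2 differences of -0.60 and -0.05. The files do not say whether any of these IDs belong to 1 gene.

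Apart from FBtr0076453, the differences between genotypes were small. The second lowest was that of FBtr0074656, with 30920 and 31630 in the sple replicates and 33904 and 36181 in the control replicates, a log2 difference of -0.16 ± 0.15 (SE). The highest was that of FBtr0076688, with 33585 and 35251 in sple and 30203 and 32608 in control, a difference of 0.13 ± 0.15. FBtr0076033 followed with 34630 and 32595 in sple, against 31803 and 30614 in control, a difference of 0.11 ± 0.15. None of these 3 transcripts overlapped between genotypes, yet each of their 95% intervals included 0. They were picked for the size of their difference, and 27.7% of all measured transcripts did not overlap either.

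Over the list, 108 members were lower and 92 higher in sple, while 54.0% of all measured transcripts were lower. The median log2 difference over the members was -0.0048, against -0.02 over all 16637, and with each array centred on its own median these became 0.028 and 0.014, so the sign of so small a shift depends on the scaling. The median size of a difference was 0.035 log2 units over the members and 0.14 over all measured transcripts. It was 0.046 over the next 200 transcripts by control mean and 0.23 at ranks 8001 to 12000, so small differences were not particular to the members. A difference of at least 1.1-fold in either direction was seen in 2 members, FBtr0076453 and FBtr0074656, and in 52.0% of all measured transcripts. That share was not taken for transcripts close to the members in brightness. At least 2-fold, 1 member was lower in sple (0.577% of all) and 0 were higher, where 2.63% of all transcripts differed by that much either way. Of the next 200 transcripts by control mean, 1 differed by that much. Without sple replicate 1 the share of all transcripts was 9.27%, and among transcripts above the median level it was 0.553%, with 1 member as before in both.

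In 37 of the 200 members the replicates of sple and control did not overlap, 19 higher and 18 lower in sple. Over all measured transcripts they did not overlap in 27.7%, with 10.1% higher and 17.5% lower. Limma, fitted to all 16637 transcripts with 2 replicates per genotype, called 0 members at an adjusted p under 0.05 and 0.0% of all transcripts. At an unadjusted p under 0.05 it listed 1 member, FBtr0076453, and 2.48% of all transcripts. That share was 18.8% without sple replicate 1, 4.45% without sple replicate 2, 1.29% without control replicate 2, 3.97% with the replicate block and 8.04% when the 16 arrays were fitted with a random block, while 1 member was listed each time. With floor transcripts kept it was 3.99%, and 8 members were listed. Nothing is read from these counts, since the rule used the control values of the same contrast. The 95% interval lay within a 2-fold difference either way for 199 members and for 71.5% of all transcripts, and its median half-width over the members was 0.42 log2 units. The half-width was 0.81 with control replicate 1 or 2 left out, where 193 members (without replicate 1) and 185 members (without replicate 2) lay within 2-fold. It was 0.21 with an intensity trend and a robust prior, and 0.21 with floor transcripts kept.

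His4r, the 1 member with a gene name, stood at control rank 150. Its arrays read 33017, 33048, 31953 and 33621 in sple replicate 1 and 24952, 28981, 28540 and 30141 in sple replicate 2. They read 30754, 34772, 34784 and 36078 in control replicate 1 and 29948, 30615, 29688 and 29227 in control replicate 2. Replicate 2 was the lower one in both genotypes, and the genotypes overlapped. The log2 difference was -0.07 ± 0.18 (SE), with a 95% interval from -0.56 to 0.42, and the sple rank was 227. Leaving out each biological replicate once gave values from -0.18 to 0.046, so the sign was not fixed. Genes for histone H4 encode near-identical proteins, and the files do not say which of their transcripts the probes can tell apart.

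The transcripts that took the free places in the sple list were mostly neighbours of the edge. Of the 24, 21 had control ranks between 202 and 405 and log2 differences of at most 0.30. The other 3 came from control ranks 1170, 1605 and 2241 and carry ID numbers close to each other: FBtr0077040, FBtr0077041 and FBtr0077038. They were picked out after their values were seen.

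All 3 were low in control replicate 2 alone. FBtr0077040 measured 38671 and 36475 in the sple replicates, against 34406 and 12407 in control replicates 1 and 2. FBtr0077041 measured 34481 and 31004 in sple, against 28504 and 11996 in control. FBtr0077038 measured 36209 and 29462 in sple, against 27883 and 9474 in control. Each array of control replicate 2 shared the low level. The log2 differences of 0.86, 0.82 and 1.01 became 0.13, 0.20 and 0.23 without control replicate 2, while without control replicate 1 they were 1.60, 1.45 and 1.79. FBtr0077039, whose number lies between them, was dim in both genotypes, with 123 and 103 in sple and 154 and 94.4 in control. On either side in number, FBtr0077037, FBtr0077042 and FBtr0077043 had log2 differences of 0.08, 1.02 and -0.005. FBtr0077042 measured 1852 and 278 in the sple replicates, against 514 and 244 in the control replicates.

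**Figure D3:**
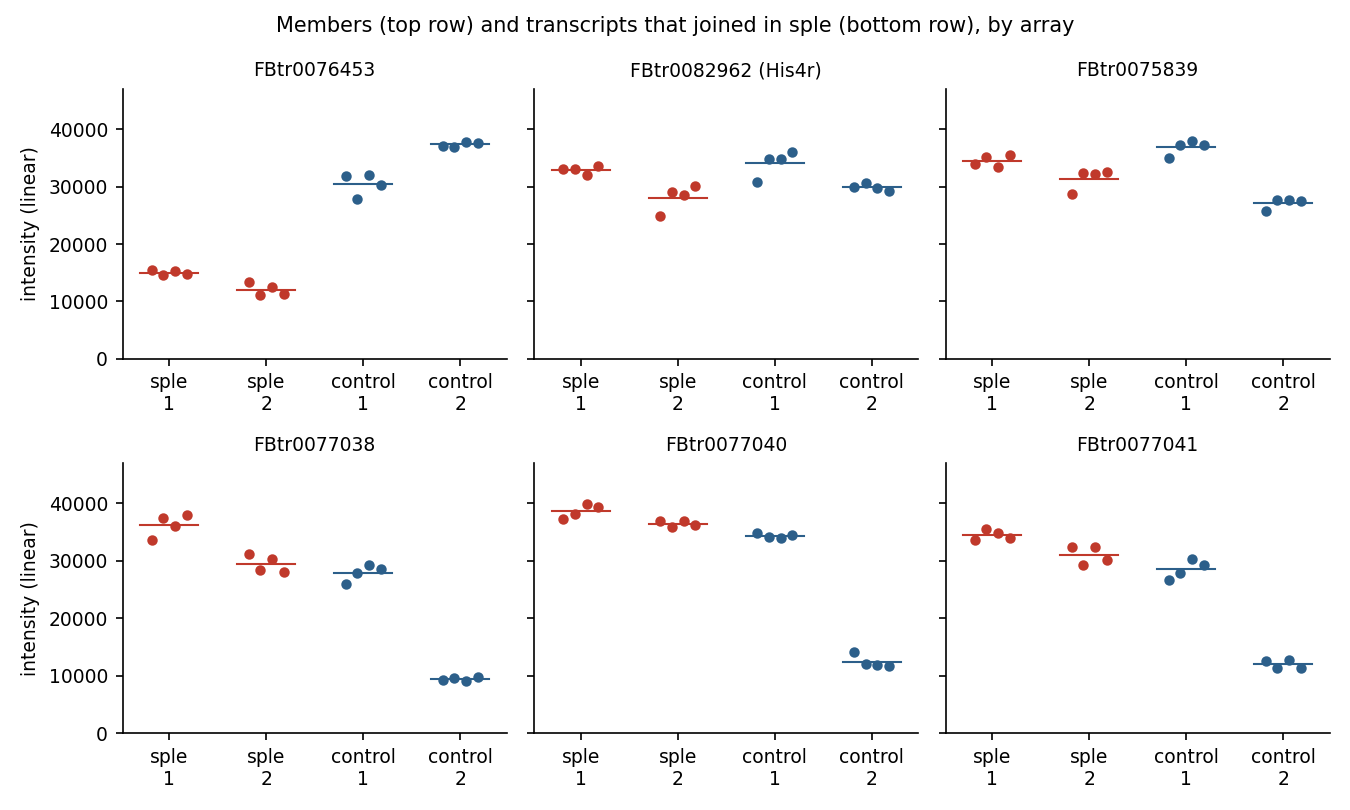
Linear intensity (vertical axis) on each technical array, by replicate, with a line at the mean over 4 arrays taken on the log2 scale; red is sple and blue is control. In the top row are the members FBtr0076453, His4r and FBtr0075839, and in the bottom row 3 transcripts that joined the 200 brightest in sple, which were low on every array of control replicate 2.

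The members varied little between biological replicates. Between the replicate means of a genotype the members had a median SD of 0.046 log2 units in sple and 0.050 in control, against 0.20 and 0.12 over all measured transcripts. The SD was larger in sple for 101 of the 200 members and for 65.2% of all measured transcripts. Among the next 200 transcripts by control mean, the median SD was 0.086 in sple and 0.080 in control. Further down it was 0.30 in sple and 0.19 in control at ranks 8001 to 12000, and 0.34 in sple but 0.10 in control at ranks 12001 to 16637. The choice by control mean did not use these spreads, but it tended to keep out transcripts with a low value in either control replicate, such as FBtr0077040.

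Over the members, the SD of single technical arrays was close in size to the SD between biological replicate means. These are unlike measures and do not show that biological replicates spread no further than technical arrays. The median SD over 4 technical arrays was 0.047 and 0.063 log2 units in sple replicates 1 and 2 and 0.055 and 0.042 in control replicates 1 and 2. Over all measured transcripts these SDs were 0.059 and 0.095 in sple and 0.11 and 0.070 in control. A biological replicate mean averages 4 arrays, so part of the technical spread has already been averaged out of the SD between replicates. Within the list, the SD was lowest at ranks 1 to 50, with medians of 0.034 in sple and 0.030 in control. It was highest at ranks 151 to 200, with medians of 0.078 in sple and 0.068 in control.

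**Figure D4:**
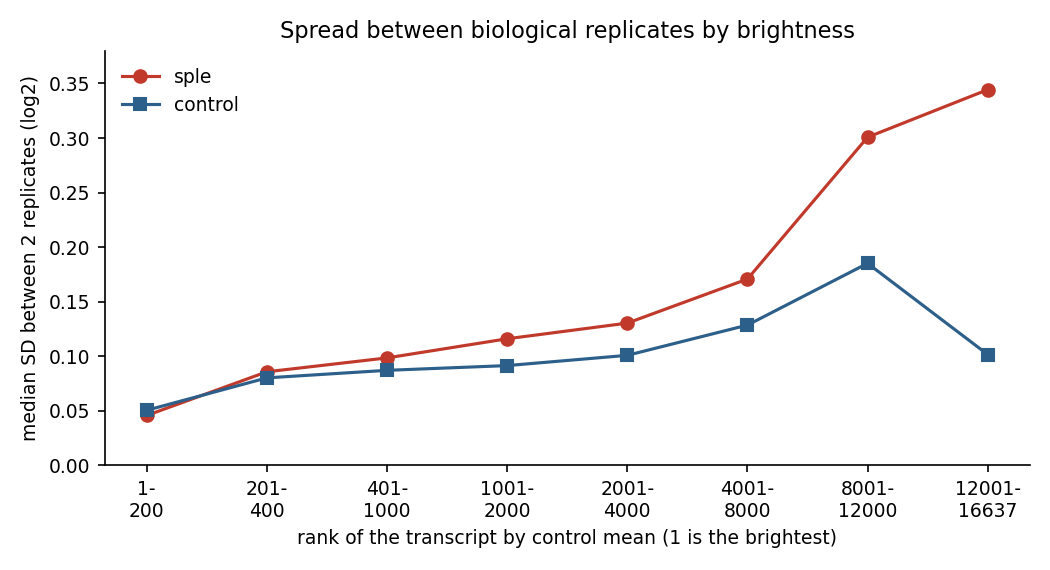
Median SD between the 2 biological replicate means of a genotype (vertical axis, log2 units) for measured transcripts binned by control rank (horizontal axis), in sple (red circles) and control (blue squares). The members are the leftmost bin, at 0.046 and 0.050, and the sple line lies above the control line in every other bin.

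Some members moved between replicates more than between genotypes. The range over the 4 replicate means was under 0.2 log2 units for 160 of the 200 members, and its median was 0.13 over the members and 0.46 over all measured transcripts. The steadiest were FBtr0071096, FBtr0074118 and FBtr0079175. FBtr0071096 measured 34062 and 33637 in sple and 33869 and 34056 in control. After FBtr0076453, the widest ranges were those of FBtr0075839 and FBtr0070386.

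FBtr0075839 measured 34507 and 31380 in the sple replicates and 36864 and 27157 in the control replicates. The sple values lay between the control values, which had the largest control SD of the list, 0.31 log2 units. FBtr0070386 measured 32062 and 25301 in sple and 34209 and 27777 in control, so that replicate 2 was lower in both genotypes. It had the largest sple SD of the list, 0.24, and was down at rank 615 in sple replicate 2. FBtr0087041, with 31302 and 26264 in sple and 32081 and 29483 in control, reached rank 513 in the same replicate. Besides FBtr0076453 these 2 held the lowest ranks of any member in any replicate, and 192 members stayed within the 400 brightest of all 4 replicates.

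None of the 200 members had the same values on all arrays as another member. Unlike values do not show that members are separate measurements, since transcripts of 1 gene can share probes. A total of 19 members, in 10 pairs, had IDs next to each other in number, and the 2 of a pair differed by at least 0.05 log2 units in their control means. FBtr0071690, the brightest, was in such a pair with FBtr0071691. FBtr0071690 averaged 42341 in sple and 43601 in control, and FBtr0071691 averaged 38182 in sple and 37886 in control. Over the 4 replicate means, 155 of 19900 pairs of members (0.779%) had deviations that correlated at 0.99 or more. Such pairs held 150 of the 200 members, but 4 points say little about any pair. The share among pairs of other transcripts was not taken, so nothing is read from these counts.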

How the data were processed

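RMA is the tool named in the submitters' processing notes; its version, the array annotation and any later scaling are not stated there. The deposited table holds 1 intensity per transcript ID and array on a linear scale, from a floor of 27.42, held by 4414 IDs on all 16 arrays and left out of the fits, to 45946. Log2 was taken with no added constant, and technical arrays were averaged per biological replicate, so intensities of a replicate are geometric means of 4 arrays. Ranks run over all 21051 IDs, and ties go by ID. The genotypes were compared by lmFit and eBayes of limma 3.58.1 under R 4.3.3, with p-values adjusted by Benjamini-Hochberg over 16637 transcripts. The number of arrays limits the precision, and an exact permutation of 2 against 2 cannot go below 0.333. The fit was run on simulated data with known changes and independent noise, which cannot show how it behaves where replicates vary together. The labels call the replicates biological without saying what was kept apart.

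Members and lists were chosen with earlier results of these data known. Transcripts were named by rule: the 10 brightest, 3 on either side of the edge, 2 with the highest and 2 with the lowest difference, 3 with the widest and 3 with the narrowest range, 3 farthest down in rank, and those listed under 1 gene. The gene lists prepared could not be used, with 1 member named. Alternatives covered the averaging, the scaling, the list size, each replicate left out, the replicate block and the limma settings.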

Additional observations from a re-analysis of the deposited data

Results flagged for a closer look

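Technical arrays were examined in 104 sets of 4, each set from a single replicate, and 5 sets had an array that stood far from its fellows; about 1 set in 20 does so by chance, here 5.2 sets. The gap is given as a share of the range of the 4 values, and no explanation was tested. In sple replicate 1, technical array 2 stood apart in the members' median intensity (0.920 of the range), at 34829 against 33985 to 34052 on the other arrays. On the same array FBtr0081931 was apart (0.896), at 31047 against 28366 to 28635. FBtr0075839 was low on technical array 1 of sple replicate 2 (0.921), at 28673, and on technical array 1 of control replicate 2 (0.900), at 25761. FBtr0071096 was high on technical array 2 of control replicate 2 (0.834), at 34980. The biological replicates, 2 per genotype, cannot be examined in this way.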

How the results depend on the processing

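Of the 200 brightest control transcripts, at least 84.0% were chosen again with 1 biological or technical replicate left out, and at least 98.5% under the other averaging and normalization. The share also in the sple list was 78.5% to 89.5% with replicates left out and 87.0% and 87.5% for lists of 100 and 400. The median difference over the members was 0.028 with median centring, ran from -0.021 to 0.018 with 1 biological replicate left out, and was 0.0087 and 0.011 when members chosen on 1 control replicate were compared with the other. Median centring raised the members' control SD to 0.063. With all 16 arrays and a random block limma called 1 member, FBtr0076453, among 111 transcripts, where arrays of 1 RNA count in part as replicates. Its control values helped to choose it, so this call is not used as a test. The other fits that kept both replicates of each genotype called 0 members. Keeping floor transcripts gave 8 members at an unadjusted p under 0.05 in place of 1. With the replicate block limma called 0 members and listed 1 unadjusted, and it changed no call. Same-numbered replicates deviated together at r = 0.502 over the members and 0.257 over all measured transcripts. The labels do not say whether a number marks a shared batch, and this was not tested. With other scaling or the median of technical arrays, 10 of 93 log2 differences of named transcripts moved by more than their replicate SD, 8 of them with median centring; leaving out 1 of 2 replicates cannot move one that far. The cause was not tested. The SD of the members was not recomputed with a replicate left out, since 1 replicate has none.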
